A study of Mus musculus with 4 samples.

Results

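Cajal-Retzius cells were sought among 60288 nuclear barcodes of mouse hippocampus, and 270 nuclei were found among the 59750 that held at least 500 detected genes. A nucleus was taken when it held at least 2 UMIs (unique molecular identifiers, 1 per captured RNA molecule) of Reln and at most 1 UMI of Gad1 and Gad2 together. It also had to hold at least 1 UMI of at least 2 of the 5 genes Trp73, Lhx1, Lhx1os, Lhx5 and Ndnf, with Trp73, Lhx1 or Lhx5 among them. The nuclei were thus chosen by the measured levels of these 8 genes, which are described below without a test. No cell barcode was shared between Cajal-Retzius nuclei of different libraries, while 108 to 466 barcodes were shared between pairs of whole libraries.

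The study made 4 single-nucleus RNA libraries, 1 for each genotype in the labels: Wild type (WT), Total/global MAGL-KO (tKO), Astrocyte specific MAGL-KO (aKO) and Neuron specific MAGL-KO (nKO). MAGL is monoacylglycerol lipase, encoded by Mgll, a lipase that degrades the endocannabinoid 2-arachidonoylglycerol. No source used here gives the age, sex or number of the animals, or the promoter or Cre line behind the cell-type knockouts. Each genotype is a single library, so differences between genotypes have no replicate check, and intervals on counts, shares and ratios cover counting error only.

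Cajal-Retzius cells are early-born glutamatergic neurons of the outermost layer of the cortex and of the molecular layers along the hippocampal fissure. They secrete reelin, the glycoprotein encoded by Reln, which binds the receptors Vldlr and Lrp8 on migrating and maturing neurons and leads to phosphorylation of the adaptor Dab1. Most of those in the neocortex die in early postnatal life, while more persist in the hippocampus. They depend on the p53 relative p73 (Trp73), and they use the vesicular glutamate transporter encoded by Slc17a6, in contrast to the principal neurons around them, which use Slc17a7.

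Cajal-Retzius nuclei came nearly all from the WT and tKO libraries. The WT library held 43 in 9304 nuclei, a share of 0.462% (95% Clopper-Pearson interval 0.335 to 0.622%). The tKO library held 221 in 30929, or 0.715% (0.624 to 0.815%). The aKO library held 4 in 10664, or 0.0375% (0.0102 to 0.0960%), and the nKO library 2 in 8853, or 0.0226% (0.00274 to 0.0816%). The intervals of the aKO and nKO libraries lay wholly below those of the WT and tKO libraries, and those of WT and tKO were apart by a narrow gap. With at least 1000 detected genes the shares were 0.467% in WT and 0.543% in tKO. Cajal-Retzius nuclei of at most 6000 UMIs were 0.408% and 0.511% of all 9304 and 30929 nuclei, which were of any depth. Among nuclei of at most 6000 UMIs alone they were 38 of 2346 in WT and 158 of 17310 in tKO, a higher share in WT. The tKO values of 0.543% and 0.511% lay within the WT interval. The tKO share stayed above that interval without called doublets (0.458% and 0.691%), with Gad1 and Gad2 at 0 (0.451% and 0.673%) and with at least 3 Reln UMIs (0.451% and 0.708%). Whether genotype, dissection or nuclear isolation lay behind these shares cannot be told apart with 1 library each.

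**Figure D1:**
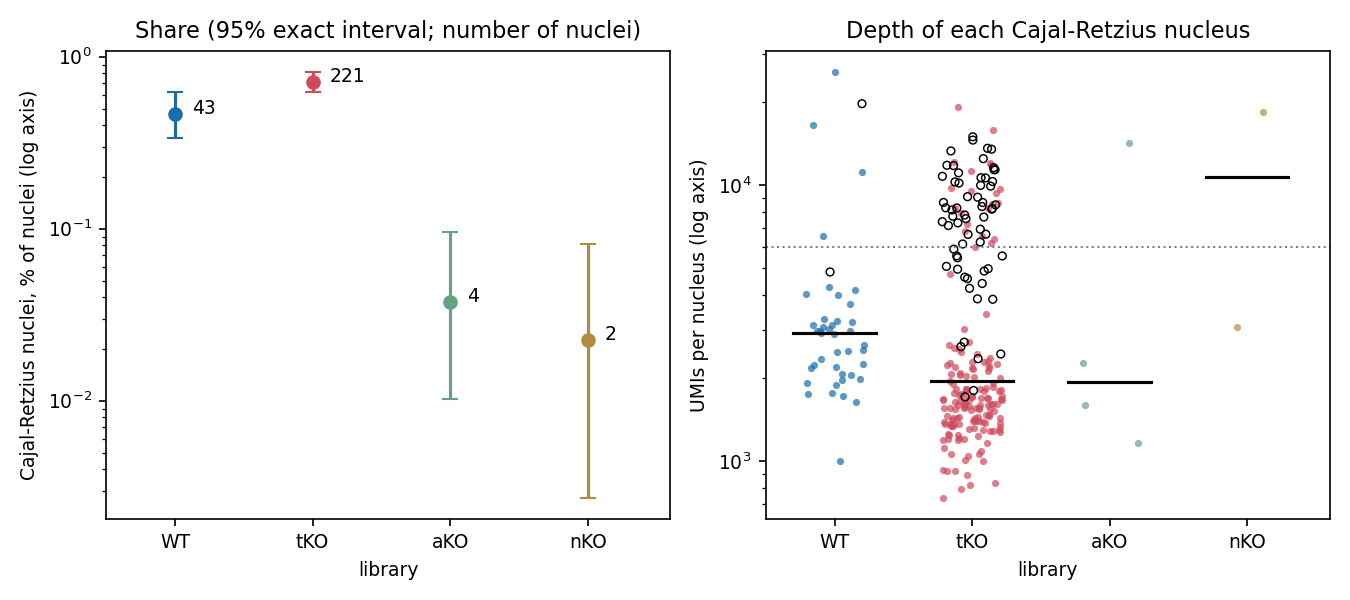
Left, Cajal-Retzius nuclei as a percentage of the nuclei of each library (log axis), with the exact 95% interval and the number of nuclei. Right, total UMIs of each Cajal-Retzius nucleus (log axis), with the median as a bar, nuclei called as doublets as open circles and a dotted line at 6000 UMIs. The 43 WT and 221 tKO nuclei stand far above the 4 aKO and 2 nKO nuclei in share, and 63 tKO nuclei lie above the line.

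Reelin RNA was counted in every nucleus, as the rule required. Reln UMIs per nucleus ran from 2 to 67 in the WT library with a median of 27, and from 2 to 68 in the tKO library with a median of 18. Summed over nuclei, Reln stood at 7171 CPM (UMIs scaled to a class total of 1e6) in WT and 4802 CPM in tKO. Trp73 was detected in 39 of 43 WT nuclei and 198 of 221 tKO nuclei, at 541 and 439 CPM. Ndnf, which encodes a secreted neuron-derived factor, was detected in 43 of 43 and 218 of 221 nuclei, at 2199 and 1158 CPM. The LIM homeobox genes were sparser: Lhx1 was seen in 15 WT and 54 tKO nuclei, and Lhx5 in 8 and 50.

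The pair Trp73 and Ndnf alone admitted 18 of the 43 WT nuclei and 108 of the 221 tKO nuclei. Exactly 2 of the 5 further genes were present in 21 WT and 130 tKO nuclei, 3 in 15 and 78, 4 in 6 and 11, and all 5 in 1 and 2. All 4 aKO and both nKO nuclei carried the pair Trp73 and Ndnf and no other of the 5 genes, some of which are not listed in those libraries and were taken as 0 (Lhx1 in both, Lhx1os in aKO, Lhx5 in nKO). In the aKO nuclei UMIs of Cacna2d2, Ebf3 and Tmem163, none of them used by the rule, were present in 4 of 4. In the nKO nuclei Cacna2d2 and Ebf3 were each present in 1 of 2, and Tmem163 in 2 of 2.

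Values just inside and just outside the rule were as follows. WT nuclei just inside, with 2 of the 5 genes, held 1038 CPM of Cacna2d2 and 510 CPM of Ebf3. The 13 WT nuclei just outside, with Ndnf as their only one of the 5 genes, held 193 CPM of Cacna2d2 and 148 CPM of Ebf3. In the tKO library the 130 nuclei inside held 343 CPM of Cacna2d2 and 265 CPM of Ebf3, and the 98 outside held 166 and 65.7 CPM. Median depths were 2967 UMIs inside and 2408 outside in WT, and 1814 and 4439 in tKO, and a deeper nucleus gives a lower CPM for the same UMIs. Nuclei with Ndnf and Lhx1os only, also outside, held 447 CPM of Cacna2d2 and 895 CPM of Ebf3 in WT (2 nuclei) and 242 CPM of Cacna2d2 in tKO (10 nuclei). Another 13 tKO nuclei met every other condition but held over 2 UMIs of Gad1 and Gad2 together, and their Cacna2d2 stood at 288 CPM.

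The nuclei differed widely in depth. Median UMIs per nucleus were 2918 in WT (998 to 25760) and 1957 in tKO (738 to 19288). Nuclei with UMIs of Slc17a7, the transporter of hippocampal principal neurons, had medians of 10990 and 7740 UMIs, so Cajal-Retzius nuclei were the shallower class. Yet 5 of 43 WT nuclei and 63 of 221 tKO nuclei held over 6000 UMIs. These 63 nuclei gave 609087 of the 922262 UMIs of the tKO class, and the 5 gave 79895 of the 182831 UMIs of the WT class.

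The deep nuclei held about as many UMIs of Reln and of other Cajal-Retzius genes as the shallow ones, at several times the total. Median Reln UMIs in tKO nuclei were 19 over 6000 total UMIs and 18 at or below it, at median depths of 9058 and 1634 UMIs. Median Trp73 UMIs were 1 and 2, and median Ndnf UMIs 4 and 4. Medians of Cacna2d2, Ebf3 and Tmem163 were 1, 1 and 2 in both depth groups, and those of Dach1 were 5 and 4. Slc17a7 was detected in 48 of the 63 deep tKO nuclei and in 12 of the 158 others. In WT, Slc17a7 was detected in 3 of 5 deep nuclei and 0 of 38 others, which allows a share of nuclei with a UMI of up to 7.89% and sets no limit on expression.

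Markers of other neurons followed the same split. In deep tKO nuclei 7 of 7 pyramidal markers were detected at a summed 410 CPM and 11 of 14 inhibitory markers at 1258 CPM. In the shallower tKO nuclei 6 of 7 and 6 of 14 were detected, at 150 and 498 CPM. Of the 19 further Cajal-Retzius genes 17 were detected in each depth group, at 941 CPM in the deep and 3452 CPM in the shallower nuclei. WT gave 839 CPM in the deep and 4032 CPM in the shallower nuclei. The doublet caller Scrublet marked 43 of the 63 deep and 20 of the 158 shallower tKO nuclei, and 1 of 5 and 1 of 38 in WT. Doublets were kept in the main values, and the part of joined nuclei or free RNA in them was not tested.

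**Figure D2:**
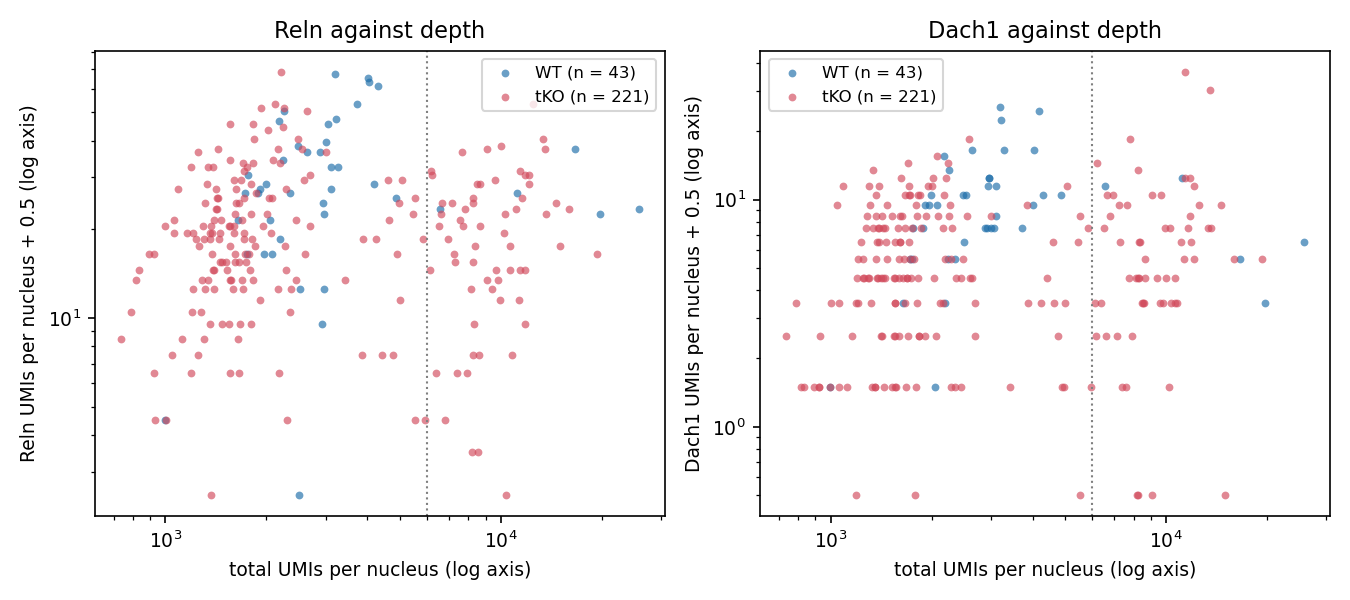
UMIs of Reln (left) and Dach1 (right) in each Cajal-Retzius nucleus plus 0.5, against total UMIs, both on log axes, for the WT (43) and tKO (221) libraries. The dotted line marks 6000 UMIs, and the median Reln count in tKO is 19 to its right and 18 to its left.

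Genes outside the rule were compared with 2 other classes in the same libraries. Slc17a7 nuclei held at least 2 UMIs of Slc17a7 and at most 1 of Gad1 and Gad2, and stand for the principal neurons. Reln Gad nuclei held at least 2 UMIs of Reln and at least 2 of Gad1 and Gad2, and stand for the inhibitory neurons that also make reelin. UMIs were summed per library and class for the 2 libraries with at least 10 Cajal-Retzius nuclei, WT and tKO. Differences were tested with edgeR's quasi-likelihood test with the library as a block, and p-values were adjusted over 16135 genes (Benjamini-Hochberg, threshold 0.05). The 6 sums leave 2 residual degrees of freedom, and the libraries differ in genotype.

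Genes listed as known from Cajal-Retzius cells stood out against both classes. The list and the rule were chosen with earlier results of these data known, so these counts are no independent evidence of identity. Against Slc17a7 nuclei, 12 of the 16 tested genes of a list of 19 rose and 0 fell, with a median log2 fold of 4.09. Over all genes tested 3.49% rose and 4.67% fell, with a median of -0.13. Against Reln Gad nuclei 11 of 16 rose and 0 fell, with a median of 3.59, beside 3.24% and 3.85% of all genes and a median of -0.08. The genes higher in both were Ebf3, Nhlh2, Zic2, Eya2, Tmem163, Emx2, Cxcr4, Cacna2d2 and Slc17a6. Eomes, Nhlh1 and Barhl2 had too few UMIs to be tested.

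The list was also counted in other sets of nuclei. With called doublets removed, 13 of 15 tested genes rose and 0 fell against each class, while 4.93% of all genes rose and 9.34% fell against Slc17a7 nuclei and 4.78% and 6.88% did against Reln Gad nuclei. With every nucleus thinned to 2000 UMIs, 10 of 12 rose against Slc17a7 nuclei, beside 2.38% of all genes higher and 3.73% lower. In the same set 7 of 12 rose against Reln Gad nuclei, beside 2.05% and 2.95%. A limit of at most 6000 UMIs was set on Cajal-Retzius nuclei only. Here and below, the comparison classes kept nuclei of any depth under that limit, so depth was not matched. With it 13 of 16 rose against Slc17a7 nuclei, beside 4.74% of all genes higher and 8.86% lower. Against Reln Gad nuclei 11 of 16 rose, beside 3.67% and 6.62%.

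The transcription factors among them were of the COE, basic helix-loop-helix, zinc finger and homeobox families. Ebf3 stood at 328 CPM (250 to 422) in WT and 257 (225 to 292) in tKO Cajal-Retzius nuclei. Its level was 0.730 and 2.01 CPM in Slc17a7 nuclei and 0.177 and 4.01 CPM in Reln Gad nuclei. Its log2 fold was 7.30 ± 0.44 (SE, adjusted p = 1.7e-05) against the first class and 6.53 ± 0.47 (adjusted p = 7.01e-05) against the second.

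Nhlh2, a neuronal helix-loop-helix factor, stood at 54.7 and 29.3 CPM and was higher by 6.72 and 6.80 on the log2 scale. Emx2, a homeobox factor of the medial pallium from which hippocampal Cajal-Retzius cells arise, stood at 65.6 and 32.5 CPM and was higher by 3.79 and 5.49. Zic2 was higher by 5.87 and 3.44, the second call being lost after thinning to 2000 UMIs. Nhlh2 and Cxcr4 had too few UMIs to be tested after thinning. Zic1, its neighbour in family, was higher than in Slc17a7 nuclei by 4.58 and did not pass against Reln Gad nuclei, at 1.70 (adjusted p = 0.209). Tbr1, a T-box factor of early glutamatergic neurons, passed only the test against Reln Gad nuclei (3.30, adjusted p = 0.00289, not called after thinning) and stood at 0.92 against Slc17a7 nuclei (adjusted p = 0.204).

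**Figure D3:**
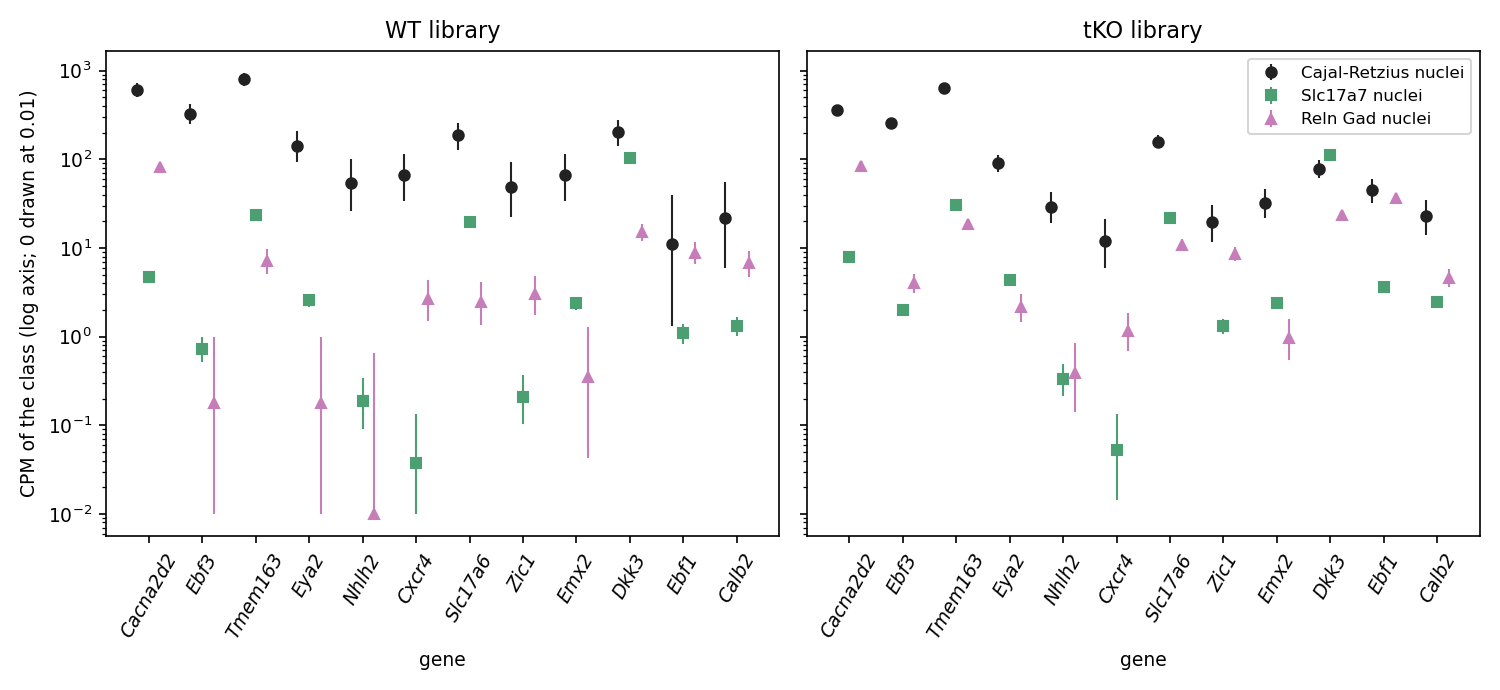
CPM (log axis, 0 drawn at 0.01) of 12 further Cajal-Retzius genes in Cajal-Retzius, Slc17a7 and Reln Gad nuclei of the WT and tKO libraries, with exact 95% Poisson intervals of the summed counts. Ebf3, Tmem163, Eya2 and Slc17a6 lie above both other classes in both libraries, while Ebf1 in tKO lies near its level in Reln Gad nuclei (44.5 and 36.3 CPM).

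Transport and surface genes followed. Slc17a6, the vesicular glutamate transporter, stood at 186 CPM (129 to 260) in WT and 158 (134 to 186) in tKO, against 19.4 and 21.5 in Slc17a7 nuclei and 2.48 and 10.9 in Reln Gad nuclei. Its log2 fold was 2.63 ± 0.34 (adjusted p = 0.00199) and 4.21 ± 0.38 (adjusted p = 0.000196). Tmem163, a zinc transporter of vesicle membranes, stood at 804 and 629 CPM and was higher by 4.39 and 5.52. Cacna2d2, an auxiliary subunit of voltage-gated calcium channels, stood at 607 and 363 CPM and was higher by 5.86 against Slc17a7 nuclei and by 2.24 against Reln Gad nuclei, which held it at 81.3 and 84.5 CPM.

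Detection per nucleus gave the same order. Thinning each nucleus to 2000 UMIs left out 9 WT and 111 tKO Cajal-Retzius nuclei. Of the 34 WT nuclei kept, 5 had held over 6000 UMIs, and of the 110 tKO nuclei 63 had. Cajal-Retzius genes had lower CPM in such deep nuclei, so the thinned WT and tKO shares are not like for like. After thinning, Cacna2d2 was present in 82.4% of WT (65.5 to 93.2%) and 40.9% of tKO nuclei (31.6 to 50.7%). The shares in Slc17a7 nuclei were 1.06% and 1.52%, and in Reln Gad nuclei 13.4% and 15.1%. Ebf3 was present in 61.8% and 25.5% of Cajal-Retzius nuclei, against 0.136% and 0.299% of Slc17a7 nuclei. Slc17a6 was present in 32.4% and 20.9%, against 3.91% and 4.01%. Before thinning the Cajal-Retzius shares were 95.3% and 75.1% for Cacna2d2, 69.8% and 58.4% for Ebf3 and 41.9% and 47.5% for Slc17a6.

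Homeodomain proteins, among them Lhx1, Lhx5 and Emx2, bind sites built around the letters TAAT, so the promoters of genes higher in Cajal-Retzius nuclei were searched for TAATTA. RefSeq promoters (GRCm38.p6, from 250 bases before to 50 after a gene's start) were matched by symbol for 217 of the 290 genes higher than in both classes. TAATTA, which reads the same on both strands, was found for 14 of the 217 (6.45%). It was found for 6.12% of all genes with a promoter and for 3.85% of 11776 genes tested. The palindrome bound by EBF factors, searched on both strands, was found for 2 of the 217 (0.922%), for 1.06% of all genes and for 1.27% of the genes tested. The TAATTA share was near that of all genes and above that of the genes tested, and no test was made. The promoters of Slc17a6 (chr7:51624387-51624686, plus strand), Tmem163 (chr1:127677972-127678271, minus strand) and Emx2 (chr19:59458440-59458739, plus strand) are shown because these Cajal-Retzius genes were higher than in both classes and their promoters hold the letters, in capitals. Slc17a6 has a second promoter in RefSeq without them. A match is a description of the letters only.
Slc17a6: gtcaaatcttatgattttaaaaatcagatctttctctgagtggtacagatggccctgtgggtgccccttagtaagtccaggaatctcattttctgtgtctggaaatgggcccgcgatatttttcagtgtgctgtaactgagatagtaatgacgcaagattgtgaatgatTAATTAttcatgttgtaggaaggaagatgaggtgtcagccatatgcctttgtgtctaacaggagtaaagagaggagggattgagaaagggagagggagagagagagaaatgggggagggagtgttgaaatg
Tmem163: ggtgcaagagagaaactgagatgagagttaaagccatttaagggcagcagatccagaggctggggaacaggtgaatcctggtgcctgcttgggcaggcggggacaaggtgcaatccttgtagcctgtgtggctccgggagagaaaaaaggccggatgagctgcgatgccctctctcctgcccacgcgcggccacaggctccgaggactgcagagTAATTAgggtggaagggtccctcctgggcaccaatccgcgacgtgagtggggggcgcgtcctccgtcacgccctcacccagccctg
Emx2: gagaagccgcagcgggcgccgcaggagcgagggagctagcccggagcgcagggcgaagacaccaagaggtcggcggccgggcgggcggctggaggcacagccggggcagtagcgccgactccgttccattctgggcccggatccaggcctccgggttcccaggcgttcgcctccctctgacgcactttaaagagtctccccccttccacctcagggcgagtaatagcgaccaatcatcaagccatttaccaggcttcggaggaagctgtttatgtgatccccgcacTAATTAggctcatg

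Chemokine genes marked the class as well. Cxcr4, the receptor for the meningeal chemokine Cxcl12, had 12 UMIs in WT (65.6 CPM) and 11 in tKO (11.9 CPM). It was higher than in Slc17a7 nuclei by 8.77 ± 0.77 (adjusted p = 0.000153) and than in Reln Gad nuclei by 3.75 ± 0.59 (adjusted p = 0.00434). Cxcl12 itself had 23 UMIs in WT (126 CPM) and 42 in tKO (45.5 CPM), and was higher by 3.65 and 5.40. Ackr3, the scavenging receptor for the same ligand, had 0 and 5 UMIs and did not pass either test.

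Genes were then ranked by fitted fold among those past the threshold with at least 20 UMIs in each library in the class where they were higher. Genes with fewer UMIs, such as Cxcr4, can have wider fitted folds. Against Slc17a7 nuclei they were Cd274 (7.41), Ebf3, Pik3c2g (6.37), Lrig3 (6.16), Gm29683 (5.95), Cacna2d2, Gm10475 (5.53), Dach1 (5.40), Nxn (5.09), Eln (5.05), Utrn (4.91) and Unc5b (4.67). Against Reln Gad nuclei they were Ebf3, Cd274 (6.24), Pik3c2g (6.12), Eya2 (5.94), Tmem163, Cxcl12, Lrig3 (5.11), Emx2os (4.95), Angpt1 (4.72), Eln, Slc17a6 and Dach1 (3.66). Gm10475 and Emx2os are antisense genes, and their UMIs are uncertain because no source used here says whether counting used strand. In all, 290 genes were higher in both comparisons, 51.5% of those higher than in Slc17a7 nuclei and 55.6% of those higher than in Reln Gad nuclei. The 2 comparisons share the Cajal-Retzius sums, so this overlap is no independent evidence.

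Dach1, a nuclear cofactor of eye and limb development, was the most abundant of the genes named above in the ranking by fold. It was present in 43 of 43 WT and 214 of 221 tKO nuclei, at 2226 CPM (2015 to 2453) and 1334 CPM (1260 to 1410). Slc17a7 nuclei held 28.7 and 42.4 CPM, and Reln Gad nuclei 48.7 and 240 CPM. Cd274, the immune checkpoint ligand PD-L1, stood at 109 CPM from 20 UMIs in 14 WT nuclei and at 71.6 CPM from 66 UMIs in 56 tKO nuclei. It stood at 0.243 and 0.502 CPM in Slc17a7 nuclei and at 0.531 and 1.16 CPM in Reln Gad nuclei. Angpt1, a ligand of the endothelial receptor Tie2, stood at 252 and 211 CPM, and Eln, which encodes elastin of the extracellular matrix, at 295 and 127 CPM.

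**Figure D4:**
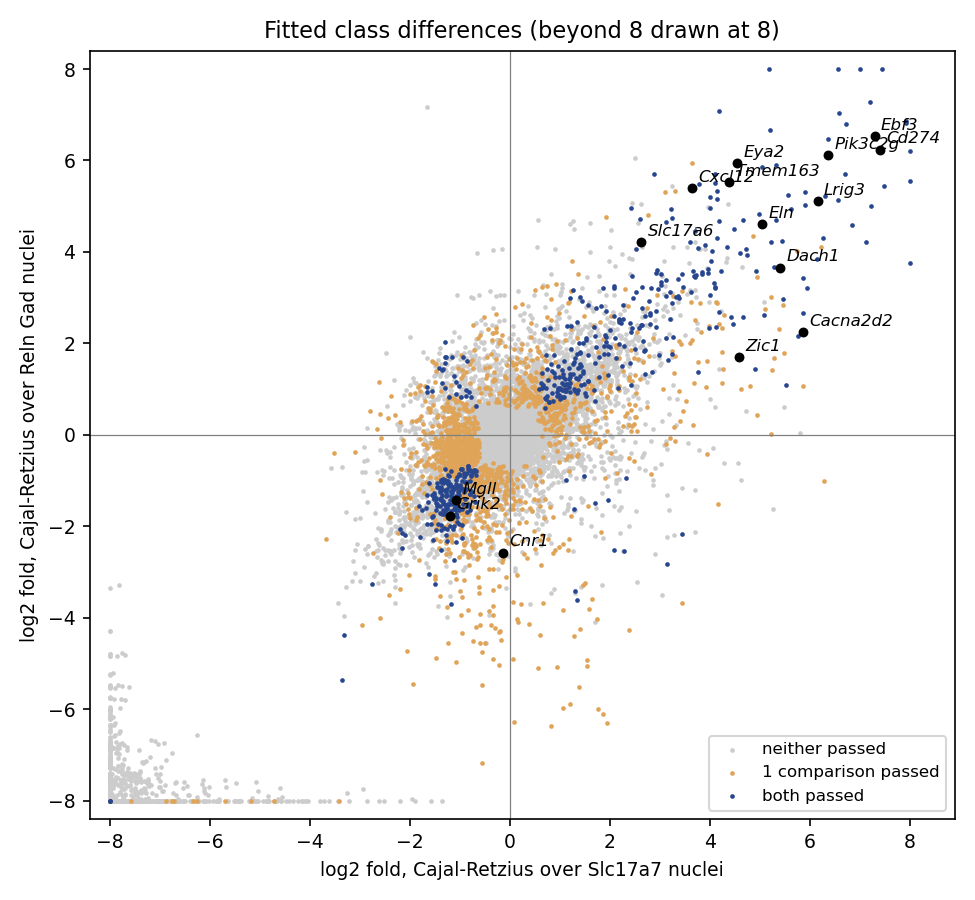
Fitted log2 folds of 16135 genes for Cajal-Retzius over Slc17a7 nuclei (horizontal) and over Reln Gad nuclei (vertical), coloured by whether neither, 1 or both tests passed. Folds beyond 8 in size are drawn at 8 (545 genes), and Ebf3, Cd274 and Pik3c2g lie at the upper right, at over 6 on both axes.

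At the other end, the genes ranked lowest had almost no UMIs in Cajal-Retzius nuclei. Against Reln Gad nuclei they included Mageb18, Dlx1, Lhx6, Gm39185, Grip1os3, Gm31218 and Tent5a, each with 0 UMIs in both libraries. Measured against a floor of 3 counts per library, Mageb18 was at least 3.86-fold lower in WT and at least 14.3-fold lower in tKO. Dlx1 and Lhx6, homeobox factors of inhibitory neurons, were at least 3.03- and 2.34-fold lower in WT and at least 9.44- and 8.03-fold lower in tKO. Of 14 inhibitory markers 10 fell, among them Sst, Npy, Erbb4 and Slc32a1, and 0 rose, beside 3.85% and 3.24% of all genes, a contrast that the limit on Gad1 and Gad2 helped to choose. The calls on Dlx1 and Slc32a1 were lost in nuclei of at most 6000 UMIs. Against Slc17a7 nuclei the lowest genes were Cped1, Adgra2, 8030453O22Rik, C730002L08Rik, Camk1g, Spef2, Gm31698 and Popdc3, with 0 to 4 UMIs per library, and each lost its call under at least 1 alternative. In WT the Slc17a7 nuclei held 7 of them below 16.4 CPM, the level that 3 counts would give in Cajal-Retzius nuclei, so no fold is given there. In tKO Cped1 and Adgra2, at 0 UMIs, were at least 2.56- and 2.01-fold lower.

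Ion channel genes moved in both directions. Of 30 potassium, sodium, calcium and HCN channel genes 5 rose and 9 fell against Slc17a7 nuclei, beside 3.49% and 4.67% of all genes, and 4 rose and 7 fell against Reln Gad nuclei, beside 3.24% and 3.85%. Without the nuclei over 6000 UMIs 6 rose and 15 fell, beside 4.74% and 8.86% of all genes, and 5 rose and 11 fell, beside 3.67% and 6.62%. Kcnh7, an ERG-type potassium channel, stood at 5634 CPM in WT and 3979 CPM in tKO, and was higher by 1.46 and 2.01 on the log2 scale. Kcnb2, a delayed rectifier, stood at 3812 and 3129 CPM and was higher by 1.52 and 2.08. Kcnip1, which binds Kv4 channels, was higher than in Slc17a7 nuclei by 3.21 and lay 0.07 below Reln Gad nuclei (adjusted p = 0.869), though it was called higher there in nuclei of at most 6000 UMIs. Scn1a, a sodium channel, fell in both comparisons, by 1.04 and 1.56.

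Kcnd2, the Kv4.2 channel of dendrites, was lower than in Slc17a7 nuclei by 1.07 with all Cajal-Retzius nuclei. In the nuclei of at most 6000 UMIs it was nearly absent in WT: 3 UMIs in 2 of 38 nuclei, or 29.1 CPM (6.01 to 85.2). The same WT library held it at 3785 CPM in Slc17a7 nuclei. In tKO the nuclei of at most 6000 UMIs held 322 UMIs, or 1028 CPM, and 239 of them lay in 10 of the 158 nuclei.

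Among receptor genes for glutamate and GABA more fell than rose, and many passed neither way. Of 26 tested genes of glutamate transport and receptors 1 rose (Slc17a6) and 9 fell against Slc17a7 nuclei (16 did not pass), with a median log2 fold of -0.75, beside 3.49% of all genes higher and 4.67% lower. The calls on Gria2 and, against Reln Gad nuclei, Gria4 were lost after thinning to 2000 UMIs. Grin2b and Grin2a, the NMDA receptor subunits, fell by 1.40 and 1.23, and Grm5, a metabotropic receptor, by 1.33. Against Reln Gad nuclei 2 rose (Slc17a6 and Grm2) and 9 fell, beside 3.24% and 3.85% of all genes, with Grik1, Grin3a and Grin2d lowest. The Grm2 call was lost in nuclei of at most 6000 UMIs, with doublets removed and after thinning to 2000 UMIs. Of 16 GABA receptor and chloride transport genes 0 rose and 9 fell against Slc17a7 nuclei, with a median of -0.87. Against Reln Gad nuclei 0 rose and 6 fell, with a median of -0.58, beside the same 3.24% and 3.85% of all genes. Slc12a5, the chloride exporter KCC2 of mature neurons, fell by 1.22 and 1.10, while the importer Slc12a2 did not pass (-0.02 and -0.22), except that it fell against Reln Gad nuclei with doublets removed.

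Lower calls were more frequent without the Cajal-Retzius nuclei over 6000 UMIs, in these lists and over all genes. The Slc17a7 and Reln Gad nuclei were of any depth there, so the classes were not matched for depth. With Cajal-Retzius nuclei of at most 6000 UMIs, 15 of 25 tested glutamate genes fell against Slc17a7 nuclei with a median of -1.69. Of the GABA and chloride genes 11 of 16 fell, with a median of -1.81. Over all genes the lower calls went from 4.67% to 8.86% and the median from -0.13 to -0.26. Grin2b had 2 UMIs in the 38 WT nuclei of at most 6000 UMIs (19.4 CPM) and Grm5 had 5 (48.6 CPM). Gria4, an AMPA receptor subunit, stood at 1554 CPM in these WT nuclei and 1689 CPM in those of tKO, and it rose against Slc17a7 nuclei in this set. Gria1 stood at 1049 and 1300 CPM there and Gria2 at 1069 and 1459 CPM, and both fell against Slc17a7 nuclei in this set. In tKO Grin2b had 98 UMIs (313 CPM), of which 82 lay in 10 of the 158 nuclei.

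Genes of axon guidance moved in both directions. Of 29, 4 rose and 11 fell against Slc17a7 nuclei, beside 3.49% and 4.67% of all genes, and 6 rose and 7 fell against Reln Gad nuclei, beside 3.24% and 3.85%. Without the nuclei over 6000 UMIs 4 rose and 18 fell, beside 4.74% and 8.86% of all genes, and 4 rose and 15 fell, beside 3.67% and 6.62%. Lower calls outnumbered higher ones there in both comparisons, as they did over all genes. Robo2, a Slit receptor, stood at 4097 and 2806 CPM and was higher by 1.79 and 1.27, the second call being lost after thinning to 2000 UMIs. Plxnd1, a semaphorin receptor, and Epha3, an ephrin receptor, were also higher in both, by 2.09 and 3.22 and by 0.91 and 1.26. Nrp1, a semaphorin co-receptor, fell by 1.66 against Slc17a7 nuclei and rose by 0.93 against Reln Gad nuclei with all nuclei. In nuclei of at most 6000 UMIs Nrp1 had 2 UMIs in WT (19.4 CPM) and 11 in tKO (35.1 CPM), and there it fell against Reln Gad nuclei.

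Of the 20 tested genes of the reelin pathway other than Reln, 1 rose (Apoe) and 2 fell (Nectin3 and Dab1) against Slc17a7 nuclei, and 1 rose (Nectin1) and 1 fell (Dcx) against Reln Gad nuclei. These 5% and 10%, and 5% and 5%, stand beside 3.49% and 4.67%, and 3.24% and 3.85%, of all genes. The Apoe call was lost in nuclei of at most 6000 UMIs and with doublets removed, and those on Nectin3 and Nectin1 after thinning to 2000 UMIs. Dab1, the adaptor that receives the reelin signal, stood at 1488 and 1608 CPM and was lower than in Slc17a7 nuclei by 1.12 ± 0.22 (adjusted p = 0.013). In the nuclei of at most 6000 UMIs Dab1 stood at 291 CPM (197 to 416) in WT and 814 CPM in tKO, where 35 of 158 nuclei held its 255 UMIs. The receptors Vldlr and Lrp8 stood at 21.9 and 49.2 CPM in WT and 42.3 and 81.3 CPM in tKO, and neither passed a test with all nuclei. With doublets removed Vldlr fell against both classes. It fell against Reln Gad nuclei alone among those of at most 6000 UMIs, and it had 0 UMIs in the 38 WT nuclei of at most 6000 UMIs.

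Mgll, the gene targeted in the study, was lower in Cajal-Retzius nuclei than in both other classes. It had 6 UMIs in WT (32.8 CPM) and 49 in tKO (53.1 CPM), against 102 and 77.4 CPM in Slc17a7 nuclei and 136 and 111 CPM in Reln Gad nuclei. The log2 fold was -1.07 ± 0.24 (adjusted p = 0.023) and -1.43 ± 0.23 (adjusted p = 0.00524). The call against Slc17a7 nuclei was lost after thinning to 2000 UMIs. In nuclei of at most 6000 UMIs Mgll had 0 UMIs in WT, which allows up to 29.1 CPM, and 8 in tKO (25.5 CPM). No source used here names the part of Mgll that was deleted, so these counts are no check on the genotypes.

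Of 12 tested endocannabinoid genes 1 rose (Plcb4) and 4 fell (Mgll, Dagla, Faah and Abhd6) against Slc17a7 nuclei, and 0 rose and 2 fell (Mgll and Cnr1) against Reln Gad nuclei, beside 3.49% and 4.67%, and 3.24% and 3.85%, of all genes. The Abhd6 call was also lost in nuclei of at most 6000 UMIs. After thinning to 2000 UMIs only Faah and Dagla of the list were lower than in Slc17a7 nuclei. Dagla, which makes 2-arachidonoylglycerol, stood at 43.8 CPM in WT and was lower by 1.08. Cnr1, the CB1 receptor, stood at 71.1 and 67.2 CPM. That was 2.58 below Reln Gad nuclei on the log2 scale (adjusted p = 7.3e-05) and 0.14 below Slc17a7 nuclei (adjusted p = 0.749). Plcb1, a phospholipase upstream of that lipid, was the most abundant of the list at 2002 and 1758 CPM and did not pass in either comparison (0.03 and 0.11).

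Among markers of other cell types, Mobp of oligodendrocytes rose in both comparisons, by 1.46 and 1.36, from 4 UMIs in WT (21.9 CPM) and 31 in tKO (33.6 CPM). In nuclei of at most 6000 UMIs 0 of 6 oligodendrocyte markers passed in either comparison.

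The tKO and WT libraries were then compared within Cajal-Retzius nuclei, as ratios of CPM with no test. At least 50 UMIs over both libraries were present for 4149 genes. Of these, 217 (5.23%) stood at least 2-fold higher in tKO and 92 (2.22%) at least 2-fold lower, with a 95% interval that leaves out no difference, and the median log2 ratio was -0.10. With TMM factors the median was 0.13 and the split 338 higher to 36 lower. At the same genes, by fold alone with no interval required, 9 stood at least 2-fold higher and 1 lower in Slc17a7 nuclei, and 86 and 4 in Reln Gad nuclei. Those classes held far more UMIs (53461371 and 5648675 in WT, beside 182831 in WT Cajal-Retzius nuclei). Their ratios carry less counting error, so the counts of the classes cannot be set side by side as sizes of a library difference. The tKO nuclei were shallower by median and held 0 Xist UMIs, while WT held nuclei of both sexes, so genotype, sex and depth cannot be told apart.

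The genes highest in tKO were Unc5d, Sgcz, Efna5, Cntn6, Foxp2, Tox, Gm28905 and Vwc2l. Unc5d, a netrin receptor, had 0 UMIs in WT and 305 in tKO, at least 20.2-fold higher against a floor of 3 counts. Sgcz, a sarcoglycan, had 8 and 1137 UMIs (log2 ratio 4.65, 3.83 to 6.03). In nuclei of at most 6000 UMIs these counts were 0 and 24 for Unc5d and 4 and 56 for Sgcz. With doublets also removed they were 0 and 4 for Unc5d and 4 and 6 for Sgcz, whose log2 ratio was then -0.75 (-2.73 to 1.61). Dpp10, a subunit of Kv4 channel complexes named here after its values were seen, had 33 and 2243 UMIs in all nuclei, and 31 and 126 in those of at most 6000 UMIs. The 63 tKO nuclei over 6000 UMIs held 281 of the Unc5d, 1081 of the Sgcz and 2117 of the Dpp10 UMIs.

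The genes lowest in tKO were E130114P18Rik (-2.34), Frmd6 (-1.55), Pabpc1 (-1.49), Cxcl12 (-1.49), Abcf1 (-1.49), Zfp949 (-1.46), Eef1a2 (-1.44) and Yipf4 (-1.42). Cxcl12 was on the chemokine list. Its ratio was -1.15 (-1.95 to -0.29) in nuclei of at most 6000 UMIs, from 23 and 32 UMIs. Cxcr4, with 12 and 11 UMIs, had too few to be ranked.

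Among nuclei of at most 6000 UMIs, 114 of 1686 genes (6.76%) stood higher in tKO and 25 (1.48%) lower, and 31 and 12 of the calls over all nuclei were kept. With called doublets also removed, 37 WT and 138 tKO nuclei remained. Of 1253 genes 24 (1.92%) then stood higher and 17 (1.36%) lower, with 4 and 4 of the calls over all nuclei kept. Fewer genes reach 50 UMIs in these sets, so a call not kept need not be a ratio that changed.

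In this smallest set the identity genes did not all lie alike in the libraries. Reln, used by the rule, stood at 11780 CPM in WT and 12340 CPM in tKO. Of the other rule genes Trp73 stood at 918 CPM (738 to 1128) and 1092 CPM (962 to 1236), and Ndnf at 3466 CPM (3108 to 3855) and 2915 CPM (2699 to 3143). Among genes the rule did not use, Ebf3 stood at 520 (387 to 684) and 682 (580 to 797), and Tmem163 at 1336 (1117 to 1585) and 1511 (1357 to 1678), with intervals that overlapped, while Dkk3 of the same list stood lower in tKO, as given below. The genes highest in tKO there were Kcnd2 (3 and 114 UMIs), Csmd3 (2 and 59), Dlgap1 (5 and 70) and Csmd1 (9 and 109). Kcnd2 UMIs came from 2 of 37 WT nuclei and 24 of 138 tKO nuclei, and 96 of the 114 lay in 10 nuclei. Csmd3 UMIs came from 2 WT and 26 tKO nuclei, those of Dlgap1 from 4 and 13, and those of Csmd1 from 3 and 20. Slc17a7 nuclei held Kcnd2 at 3785 CPM in WT and 3576 in tKO, and Csmd3 at 1666 and 1760. They held Dlgap1 at 3134 and 3343 CPM and Csmd1 at 6288 and 6400. Bbx, an HMG-box factor, was spread more evenly, with UMIs in 14 of 37 and 72 of 138 nuclei and a log2 ratio of 1.16 (0.52 to 1.99). Over all Cajal-Retzius nuclei the log2 ratios were -0.10 for Kcnd2, 1.35 for Csmd3, 0.28 for Dlgap1, 1.09 for Csmd1 and 0.30 (-0.20 to 0.91) for Bbx.

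The genes lowest in tKO in that set were Tafa2 (53 and 13 UMIs), Gm42418 (74 and 25), AY036118 (53 and 19) and Zeb2 (41 and 25). Over all Cajal-Retzius nuclei the log2 ratio of Tafa2 was 0.19 (-0.13 to 0.56) and that of Zeb2 was -0.40, against -3.19 and -1.93 in this set. Those of Gm42418 and AY036118 were -1.41 and -1.10 over all nuclei, against -2.77 and -2.67. Zeb2, a zinc finger repressor, was present in 23 of 37 WT and 8 of 138 tKO nuclei, with a log2 ratio of -1.93 (-2.73 to -1.20). The log2 ratio of Zeb2 was 0.13 in Slc17a7 nuclei and -0.16 in Reln Gad nuclei, both of any depth. In the same order Tafa2 stood at -0.157 and -0.22, Gm42418 at -0.44 and -0.50, and AY036118 at -0.405 and -0.46. Ntng2, a netrin-G that fell short of 50 UMIs, had 46 UMIs in 22 of 37 WT nuclei (469 CPM) and 2 UMIs in 1 of 138 tKO nuclei (8.64 CPM). Dkk3, a secreted relative of Wnt inhibitors, had 24 UMIs in 16 WT nuclei (245 CPM) and 7 in 4 tKO nuclei (30.2 CPM). The names in this and the preceding paragraph were chosen after their values were seen, and 1 library stands on each side.

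**Figure D5:**
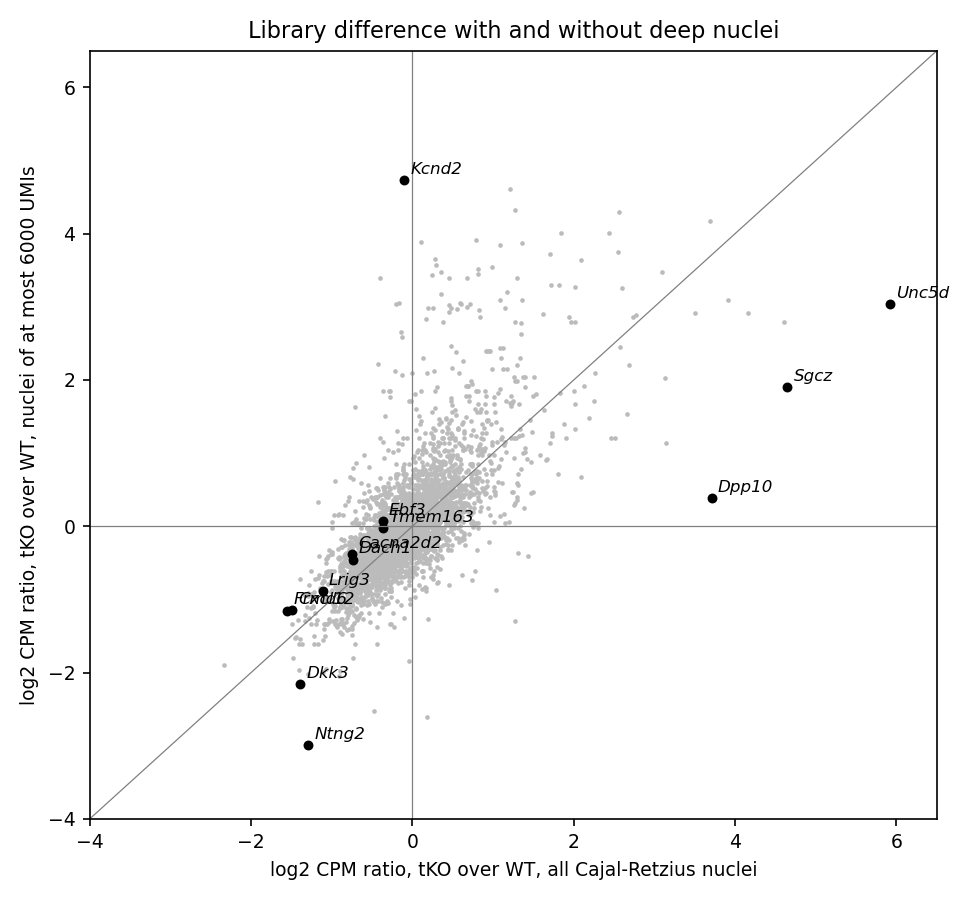
Log2 CPM ratio of the tKO over the WT library for 3742 genes, in all Cajal-Retzius nuclei (horizontal) and in those of at most 6000 UMIs (vertical), with the diagonal for equal ratios. Unc5d, Sgcz and Dpp10 lie below the diagonal at the right, Kcnd2 lies far above it, and Ntng2 and Dkk3 lie below 0 on both axes.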

How the data were processed

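The RNA of 4 single-nucleus libraries of hippocampus, made on the 10x Genomics platform per the labels, was analysed. The authors deposited whole-number UMI counts per gene and barcode, without normalization. Cell Ranger ARC 2.0.0 and mm10 are named in the submitters' processing notes, and no source used here states whether strand was used. Libraries held 81623644 to 193307038 UMIs. Gene symbols were joined over libraries (22989 in any), and a gene not listed in a library was taken as 0. Scrublet (scanpy 1.11.5, expected rate 0.8% per 1000 barcodes) called doublets, which were kept in the main values. Called shares were 3.79% in WT, 26.1% in tKO, 5.80% in aKO and 1.63% in nKO.

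Sums per library and class were fitted with edgeR 4.0.16 (TMM, filterByExpr, glmQLFit), with DESeq2 1.42.0 as an alternative. The SE of a log2 fold was worked back from the test, as the size of the fold over the square root of its F statistic. Library ratios used a pseudocount of 1 and exact conditional binomial intervals at 95%. On simulated counts for 15421 genes the test against Slc17a7 nuclei recovered 50 of 50 genes raised 4-fold and 27 of 50 raised 2-fold. It recovered 48 of 50 lowered to 0.25-fold and 16 of 50 lowered to 0.5-fold, and called 5 of 15221 unchanged genes. The simulation drew all classes from a single profile with a fixed dispersion and no library difference but depth. It changed only genes above a minimum of expected UMIs, so these rates need not hold for the real counts. The named genes were the 12 with the largest and the 8 with the smallest log2 fold among those past the threshold with at least 20 UMIs of the class where the gene is higher, and 1 direction, in both libraries. For the libraries they were the 8 highest and 8 lowest ratios. The genes that chose the classes, mitochondrial genes, Xist, Tsix and Y-linked genes were left out of the ranking. The Cajal-Retzius rule and the gene lists were chosen with earlier results of these data known. No label names separate animals, so p-values measure only the spread between these sums. The alternatives are given in the closing section, and those by depth of at most 6000 UMIs were chosen after seeing the data. In the class comparisons that limit was set on Cajal-Retzius nuclei only, and the comparison classes were of any depth. Some named items are not reported here.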

Additional observations from a re-analysis of the deposited data

Results flagged for a closer look

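Several genes had tKO over WT ratios of opposite sign in Cajal-Retzius nuclei and in another class. The ratio had to be at least 2-fold in Cajal-Retzius nuclei and at least 1.5-fold in the other class, each with a 95% interval that leaves out 0. These differences were not tested, since 1 library stands on each side. Trhde had a log2 ratio of 2.08 (1.13 to 3.76) in Cajal-Retzius nuclei and -0.63 in Reln Gad nuclei. Rnf112 had -1.03 (-1.64 to -0.33) and 0.72, Ntng2 -1.30 (-1.76 to -0.79) and 1.52, and Dkk3 -1.39 (-1.97 to -0.76) and 0.64 in the same order. Against Slc17a7 nuclei, Lrig3 had -1.11 (-1.70 to -0.44) beside 0.61, and Creb5 had -1.11 (-1.76 to -0.36) beside 1.34. The same sign in Cajal-Retzius nuclei of at most 6000 UMIs was a condition for listing these 6 genes, so it is no check on them. In those nuclei Ntng2 stood at -2.99 from 46 and 17 UMIs and Rnf112 at -0.33 from 6 and 16 UMIs. Trhde had 0 and 15 UMIs there, of 6 and 148 in all Cajal-Retzius nuclei. Lrig3 stood at -0.89 from 30 and 50 UMIs, Creb5 at -0.74 from 21 and 39, and Dkk3 at -2.16 from 24 and 16.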

How the results depend on the processing

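The share of Cajal-Retzius nuclei with at least 3 of the 5 further genes was 0.236% in WT, 0.294% in tKO and 0 in aKO and nKO. With the rule's 2 genes the share in tKO was 0.543% at 1000 detected genes. With only Cajal-Retzius nuclei of no more than 6000 UMIs counted, over nuclei of any depth, it was 0.511%, and 0.604% with doublets also removed. Against Slc17a7 nuclei (563 higher, 754 lower), thinning to 2000 UMIs gave 303 and 476 genes and nuclei with 3 further genes 311 and 405. Lower genes were 1689 with no filter, 280 with no library block, 1395 with doublets removed and 1406 at no more than 6000 UMIs. Against Reln Gad nuclei (522 and 622), thinning gave 262 and 376, no filter 844 and 1270, and 3 further genes 315 higher. Lower genes were 406 with no library block, 1054 with every library, 1027 with doublets removed and 1050 at no more than 6000 UMIs. Leaving out 1 library of the fit over every library gave 294 to 670 higher and 333 to 911 lower genes against Slc17a7 nuclei, and 354 to 649 and 536 to 840 against Reln Gad nuclei. The lowest counts came without tKO (294 and 354 higher) and without WT (333 and 536 lower), and without WT 351 were higher than in Slc17a7 nuclei. Between libraries (217 and 92), a minimum of 100 UMIs gave 134 and 21, doublets removed 86 and 45, TMM factors 338 and 36, no more than 6000 UMIs 114 and 25, and that with doublets removed 24 and 17. Lower genes were 238 at 20 UMIs, 260 at 1.5-fold, 223 in nuclei with Y-linked and no Xist UMIs, and 49 after thinning. TMM factors moved the median ratio from -0.10 to 0.13. Sgcz stood at -0.754 at no more than 6000 UMIs with doublets removed, from 4 and 6 UMIs with an interval of -2.73 to 1.61, so no direction is shown. The cause of these changes was not tested. Unthinned shares were 95.3% for Cacna2d2 in WT, and 75.1%, 58.4% and 47.5% for Cacna2d2, Ebf3 and Slc17a6 in tKO. At 1000 UMIs they were 40.5% (Ebf3, WT), 36.3% (Ebf3, tKO) and 14.3% (Slc17a6, WT). Of the alternatives for genes named by rank, 226 of 280 kept the call against Slc17a7 nuclei and 272 of 280 against Reln Gad nuclei, and none of them changed direction. Leaving WT or tKO out of the 2-library fit leaves no residual degrees of freedom. No paired analysis was possible because the labels carry no replicate numbers, beyond the library block of the class comparisons.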
